A study of Mus musculus with 12 samples.

Results

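Genes of the glutamate cycle were examined in the hippocampus of adult male C57BL/6J mice at 12 weeks of age. The members were the vesicular transporters Slc17a7 and Slc17a8, the plasma membrane transporters Slc1a1, Slc1a2, Slc1a3 and Slc1a6, and glutamine synthetase, Glul. They were taken by symbol, as every probe annotated to 1 of these 7 genes, which gave 13 of the 45281 probes on the array and 7 of its 19057 named genes. The 6 ethanol-exposed (EtOH) mice were offspring of dams that drank ethanol of their own accord in early gestation (0.5 dpc to 8.5 dpc, days post coitum), and the 6 Control mice were offspring of dams given water. Both groups were inbred and carried no engineered allele. Each mouse had its own MouseWG-6 v2.0 array, an Illumina BeadChip that reads the brightness of beads carrying 1 probe each. The sample titles hold 1 of 2 long numbers, taken here as the chip, although the labels do not name them as such. Replicates 1 to 3 of both groups shared 1 number (chip 1) and replicates 4 to 6 the other (chip 2). The litter of each mouse is not stated, so the p-values treat the mice as independent and measure only the spread between them. As the exposure was given to dams, the p-values would be too low if littermates resemble each other.

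At an excitatory synapse, a vesicular glutamate transporter loads glutamate into synaptic vesicles for release. The released glutamate is cleared from the synaptic space by sodium-coupled transporters, most of it by astrocytes, and inside the astrocyte glutamine synthetase joins it with ammonia to form glutamine. Glutamine then leaves the astrocyte and is turned back into glutamate in the neuron. In the hippocampus this cycle serves the dense excitatory circuits of the dentate gyrus and Ammon's horn. Slc17a6, the second vesicular transporter, was not among the members.

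A probe was tested if its signal stood above the negative controls (detection p under 0.05) on at least 6 of the 12 arrays, which 19288 probes did. Between 18729 and 20250 probes were detected in EtOH mice and between 18644 and 20268 in Control mice (p = 0.944, exact permutation, two-sided). The median signal was 94.7 to 113 in EtOH mice and 96.5 to 127.5 in Control mice (p = 0.444, exact permutation, two-sided), and all arrays of chip 1 were brighter than those of chip 2 by this measure. Markers of hippocampal excitatory neurons passed the filter for 9 of 10 genes (the other, Dsp, has no probe used here) and markers of astrocytes for 12 of 12 genes.

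No member differed between the groups past the threshold of 0.05 after adjustment. Of the 13 member probes 11 were tested, and at these the log2 fold change (EtOH minus Control) ran between -0.18 and 0.14, with 6 values above 0 and 5 below (those of Slc17a8, Glul and the Slc1a2 probe ILMN_2642339 lay on the other side of 0, at -0.02, -0.07 and -0.01, with median scaling of the arrays). In limma, 0 of the 11 had an adjusted p under 0.05, as for 0% of all 19288 probes, and the members' adjusted p-values were 0.759 to 0.997. At an unadjusted p under 0.05 in limma the count was also 0 of 11, beside 6.44% of all probes. Of all probes, 3.36% were higher and 3.08% lower in EtOH mice at that p. The higher ones were thus 52.2% of these calls, and 18.8% of them with median scaling. By exact permutation, two-sided, the Slc1a2 probes ILMN_3076439 (p = 0.0433) and ILMN_3123195 (p = 0.0476) were under 0.05 before adjustment, as were 6.99% of all probes. After adjustment over all probes these Slc1a2 probes had exact permutation p-values of 0.709 and 0.710. The groups overlapped at all 11 member probes, and 0.264% of all probes had groups that did not overlap. The median size of the log2 fold change, without its sign, was 0.09 over the member probes and 0.09 over all probes. Every 95% interval lay between 0.694-fold and 1.33-fold, so a change of 1.5-fold or more in either direction was outside the interval of each probe. Only 0.13% of all probes passed 1.5-fold with an unadjusted p of at most 0.05. As the RNA is from whole tissue, fewer cells of a type and less RNA per cell cannot be told apart in any of these values.

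**Figure D1:**
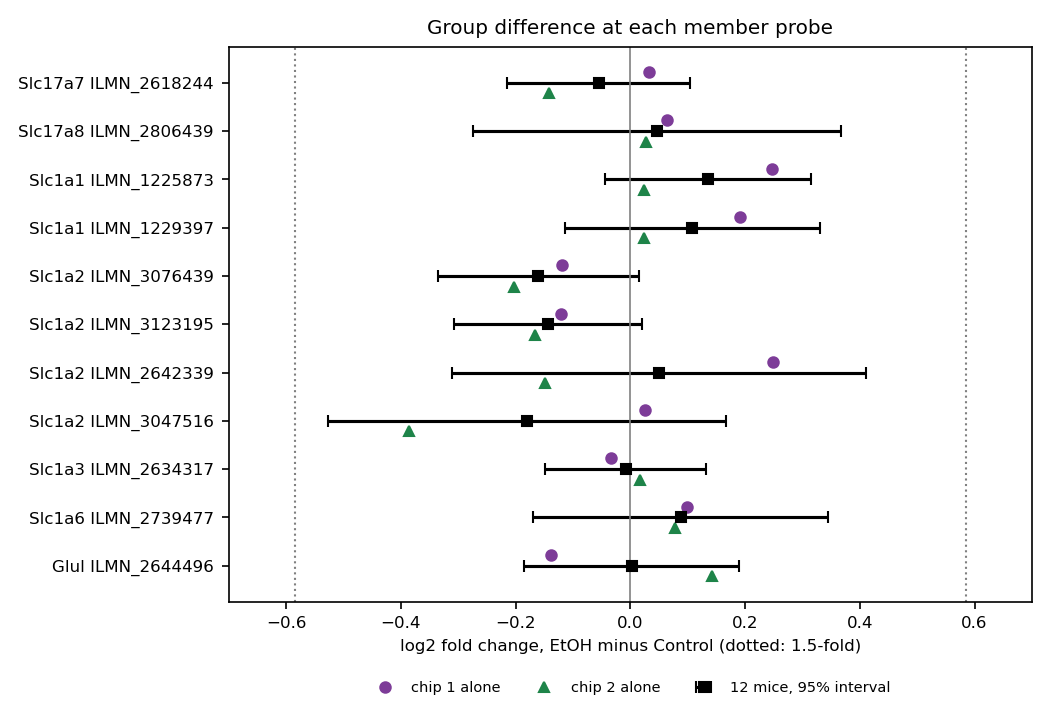
Log2 fold change (EtOH minus Control, horizontal axis) at each of the 11 tested member probes, as squares with 95% intervals over 12 mice, with the value on chip 1 alone (circles) and on chip 2 alone (triangles). Every interval crosses 0 and stays inside the dotted lines at 1.5-fold.

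Slc17a7 encodes VGLUT1, the vesicular transporter of most hippocampal pyramidal and granule cells in the adult. At its single probe, ILMN_2618244, the normalized log2 signal had a lowest, median and highest value of 12.30, 12.53 and 12.61 in EtOH mice, against 12.45, 12.51 and 12.65 in Control mice. EtOH replicates 4 and 6 lay below every Control mouse and the other 4 EtOH mice lay within the Control range. The means were 12.48 ± 0.12 in EtOH mice and 12.53 ± 0.08 in Control mice (SD, n = 6 each), a log2 fold change of -0.06 (95% interval -0.21 to 0.10, adjusted p = 0.903 in limma). Chip 1 alone gave 0.03 and chip 2 alone -0.14.

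Slc17a8 encodes VGLUT3, which is found in scattered neurons that often use another transmitter as well, in the hippocampus a class of interneurons. Its probe, ILMN_2806439, had lowest, median and highest log2 signals of 7.29, 7.55 and 8.01 in EtOH mice, against 7.12, 7.50 and 8.07 in Control mice. All 6 EtOH mice fell within the Control range. The log2 fold change was 0.05 (95% interval -0.28 to 0.37, adjusted p = 0.964 in limma), an interval wider than that of Slc17a7.

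Slc1a1 encodes EAAC1 (EAAT3), the uptake transporter of neuronal cell bodies and dendrites, which also carries cysteine. Its brighter probe, ILMN_1225873, had lowest, median and highest log2 signals of 11.99, 12.21 and 12.27 in EtOH mice, against 11.92, 12.01 and 12.31 in Control mice. Of the 6 EtOH mice, 5 lay above the Control median, but Control replicate 5 was above all of them. The means were 12.18 ± 0.11 in EtOH mice and 12.04 ± 0.15 in Control mice (SD, n = 6 each), which gave a log2 fold change of 0.14 (SE 0.084, 95% interval -0.04 to 0.31, adjusted p = 0.774 in limma). With 1 mouse left out the log2 fold change ran from 0.11 to 0.19 and the unadjusted p in limma from 0.0294 (adjusted p = 0.590, without Control replicate 5) to 0.231 (without Control replicate 6), and only the first was under 0.05. On chip 1 the signals were 12.27, 12.24 and 12.19 in EtOH mice, against 11.92, 12.07 and 11.96 in Control mice, without overlap. On chip 2 they were 12.11, 12.27 and 11.99 in EtOH mice, against 12.07, 12.31 and 11.93 in Control mice, with overlap. How many of all probes had groups that did not overlap on chip 1 was not counted. In limma on chip 1 alone this probe had an unadjusted p of 0.0475 (adjusted p = 0.574). There, 805 of all 19288 probes were higher and 850 lower at an unadjusted p under 0.05. The log2 fold change was 0.25 on chip 1 and 0.02 on chip 2, and the difference between the chips did not pass its own test (adjusted p = 0.888 for the interaction in limma).

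The dimmer Slc1a1 probe, ILMN_1229397, had lowest, median and highest log2 signals of 8.38, 8.60 and 8.85 in EtOH mice, against 8.23, 8.50 and 8.74 in Control mice. Its log2 fold change of 0.11 (95% interval -0.11 to 0.33, adjusted p = 0.856 in limma) had the same sign as that of the brighter probe, and was likewise larger on chip 1 (0.19) than on chip 2 (0.02). The remaining probe, ILMN_2566367, was not above background on any of the 12 arrays and had no test. Across the 12 mice the deviations of the bright and the dimmer probe from their group means had a Pearson r of 0.50 (permutation p = 0.0992, adjusted p = 0.298 over 15 relations chosen after the values were seen) and a Spearman rho of 0.44 (permutation p = 0.153, adjusted p = 0.329). Without the 2 mice farthest from the median r was 0.57.

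Slc17a7 and Slc1a1 varied together from mouse to mouse, as given below for all pairs of the members, and for that reason their promoters are shown. Each window runs from 250 bases before the RefSeq start of the gene to 50 bases after it in build GRCm38.p6, at chr7:45163671-45163970 on the + strand for Slc17a7 and at chr19:28834885-28835184 on the + strand for Slc1a1. Capitals mark the GC box, GGGCGG, or its reverse complement.
Slc17a7: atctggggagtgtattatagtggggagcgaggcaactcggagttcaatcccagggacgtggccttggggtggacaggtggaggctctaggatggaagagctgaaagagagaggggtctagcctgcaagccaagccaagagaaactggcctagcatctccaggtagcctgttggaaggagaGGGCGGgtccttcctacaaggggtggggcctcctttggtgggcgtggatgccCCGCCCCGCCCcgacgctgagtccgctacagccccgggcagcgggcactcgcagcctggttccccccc
Slc1a1: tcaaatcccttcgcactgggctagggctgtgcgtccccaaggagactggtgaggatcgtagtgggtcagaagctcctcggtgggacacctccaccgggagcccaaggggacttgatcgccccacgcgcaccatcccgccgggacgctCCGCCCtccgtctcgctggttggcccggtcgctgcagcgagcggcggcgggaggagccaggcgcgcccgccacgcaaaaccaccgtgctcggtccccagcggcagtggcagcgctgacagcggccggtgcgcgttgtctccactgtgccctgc
The Slc17a7 window held 3 matches to the GC box and 13 CpG dinucleotides, and the Slc1a1 window held 1 match and 32 CpG dinucleotides. Over the 32851 promoter windows of the same length, 35.7% held at least 1 GC box on either strand and the median number of CpG dinucleotides was 7. Neither window held TGACG (20.8% of all windows, both strands), CACGTG (7.2%) or TATAAA (13.6%, both strands). These are matches of letters and not measured binding sites.

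Slc1a2 encodes GLT-1 (EAAT2), the astrocyte transporter that performs most glutamate uptake in the forebrain, and it had the lowest unadjusted p-values of the members. It had 5 probes, designed on several transcripts of the gene. At ILMN_3076439 the lowest, median and highest log2 signals were 11.48, 11.61 and 11.88 in EtOH mice, against 11.69, 11.85 and 11.89 in Control mice. At ILMN_3123195, which is of like brightness, they were 11.40, 11.57 and 11.78 in EtOH mice, against 11.65, 11.73 and 11.80 in Control mice. At both probes EtOH replicates 1, 3, 4 and 5 lay below every Control mouse, while EtOH replicates 2 and 6 lay within the Control range. At least 4 EtOH mice were below every Control mouse at 3.54% of all probes.

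The mean log2 signal at ILMN_3076439 was 11.67 ± 0.16 in EtOH mice and 11.83 ± 0.07 in Control mice (SD, n = 6 each). The log2 fold change was -0.16 (SE 0.082, 95% interval -0.34 to 0.01), or 0.895-fold, with an unadjusted p of 0.0697 and an adjusted p of 0.759 in limma. An exact permutation test of the same difference, two-sided, gave p = 0.0433, which 6.99% of all probes met at 0.05 (3.15% in the lower direction), and p = 0.709 after adjustment over all probes. At ILMN_3123195 the means were 11.59 ± 0.14 in EtOH mice and 11.73 ± 0.06 in Control mice (SD, n = 6 each), a log2 fold change of -0.14 (SE 0.077, 95% interval -0.31 to 0.02, adjusted p = 0.766 in limma). Its two-sided exact permutation test gave p = 0.0476, and p = 0.710 after adjustment over all probes. Both values were below 0 on each chip, at -0.12 on chip 1 for both probes, and at -0.20 and -0.17 on chip 2. With 1 mouse left out, the log2 fold change at ILMN_3076439 ran from -0.20 to -0.12 and its unadjusted p in limma from 0.0225 (adjusted p = 0.543, without EtOH replicate 6) to 0.161 (without EtOH replicate 4). It was under 0.05 without EtOH replicate 2 or 6 or Control replicate 2. At ILMN_3123195 the unadjusted p ran from 0.0337 (without EtOH replicate 2) to 0.192 (without EtOH replicate 4).

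The 2 bright Slc1a2 probes followed each other across the mice, with a Pearson r of 0.83 for the deviations from the group means (permutation p = 0.00114, adjusted p = 0.0171 over the same 15 relations) and a Spearman rho of 0.75 (permutation p = 0.00716, adjusted p = 0.107). Without the 2 mice farthest from the median r was 0.68. Within the groups it was 0.94 in EtOH mice and 0.21 in Control mice, whose signals had less spread.

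The other Slc1a2 probes were dim. ILMN_2642339 was detected on all arrays and had lowest, median and highest log2 signals of 6.34, 6.53 and 6.61 in EtOH mice, against 5.70, 6.55 and 7.00 in Control mice. All 6 EtOH mice were within the Control range, and the log2 fold change was 0.05 (95% interval -0.31 to 0.41, adjusted p = 0.966 in limma). It followed neither bright probe closely (r of 0.22 and -0.15, permutation p = 0.497 and 0.644, adjusted p = 0.878 for both, 12 mice, rho of 0.49 and 0.03). ILMN_3047516 was detected in 3 EtOH and 4 Control mice, with a log2 fold change of -0.18 (95% interval -0.53 to 0.17, adjusted p = 0.844 in limma). Its log2 fold change was 0.03 on chip 1 and -0.39 on chip 2. ILMN_2551824 passed the detection threshold on 0 arrays and had no test.

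The markers of astrocytes, the cells that express most Slc1a2, were set beside its bright probes. None passed the adjusted threshold in limma. Of the 12 astrocyte marker genes, 10 had a log2 fold change below 0 and 2 above (also with median scaling), with a median of -0.13 beside 0.01 over all genes tested. The 2 above 0 were Sox9, a transcription factor, at 0.15 and Atp1b2 at 0.10. Gja1, a gap junction protein, was counted below 0 but rounds to 0.00. The summed linear signal of these markers was 42103 to 48254 in EtOH mice and 45421 to 50539 in Control mice. Unadjusted p-values under 0.05 in limma were found for 2 of the 12, beside 6.5% of all genes tested. These were Gfap, an intermediate filament protein, with a log2 fold change of -0.25 (adjusted p = 0.718 in limma), and Aldoc, a glycolytic enzyme, with -0.17 (adjusted p = 0.759 in limma). The count was 2 with median scaling, 3 with an offset of 50, and 4 with no background correction and in the authors' table. In each of the last 2 settings, 675 of all 19288 probes were higher and 679 lower at that p. Oligodendrocyte markers had a like median of -0.14, with 5 of 7 genes below 0 (7 of 7 with median scaling) and 1 of 7 (14.3%) past the unadjusted threshold, and their summed linear signal was 50867 to 57972 in EtOH mice and 50129 to 66366 in Control mice. Across mice the bright Slc1a2 probe and the mean of the astrocyte markers had an r of 0.21 (permutation p = 0.502, adjusted p = 0.878, rho 0.18, permutation p = 0.573). That r was -0.47 on chip 1 and 0.81 on chip 2, with 6 mice each, and 0.01 without the 2 mice farthest from the median. The part of the glial markers in the Slc1a2 difference was not tested.

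Slc1a3 encodes GLAST (EAAT1), the other astrocyte uptake transporter, which is also strong in radial glia and in Bergmann glia of the cerebellum. At ILMN_2634317 the lowest, median and highest log2 signals were 14.10, 14.19 and 14.29 in EtOH mice, against 14.08, 14.22 and 14.26 in Control mice. The groups overlapped almost fully. The log2 fold change was -0.01 (SE 0.065, 95% interval -0.15 to 0.13, adjusted p = 0.986 in limma), the smallest error among the members, and the interval corresponds to 0.903-fold to 1.10-fold.

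Slc1a6 encodes EAAT4, which is best known from cerebellar Purkinje cells. Its probe, ILMN_2739477, was dim, with a signal before normalization of 136 to 185 in EtOH mice and 142 to 193 in Control mice, yet it was detected on all 12 arrays (highest detection p 0.00748). The normalized log2 signal had a lowest, median and highest value of 5.91, 6.22 and 6.69 in EtOH mice, against 6.04, 6.14 and 6.37 in Control mice. EtOH replicates 2 and 6 lay above every Control mouse and EtOH replicate 3 below every one. The log2 fold change was 0.09 (95% interval -0.17 to 0.34, adjusted p = 0.905 in limma), and it was 0.00 without EtOH replicate 2 and 0.16 without EtOH replicate 3. Of 6 Purkinje cell markers, Pcp2, Car8, Ppp1r17 and Calb1 passed the detection threshold on 0 arrays, while Gng13 and Pvalb did on all 12. Other neurons also express Calb1, Gng13 and Pvalb, and whether the Calb1 probe reads its transcript was not tested.

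Glul encodes glutamine synthetase, which in the brain is largely confined to astrocytes. At ILMN_2644496, its only probe, the lowest, median and highest log2 signals were 7.23, 7.53 and 7.76 in EtOH mice, against 7.35, 7.54 and 7.60 in Control mice. The lowest and the highest of the 12 values were both EtOH mice, replicates 1 and 6. The means were 7.52 ± 0.17 in EtOH mice and 7.52 ± 0.10 in Control mice (SD, n = 6 each), with a log2 fold change of 0.00 (95% interval -0.18 to 0.19, adjusted p = 0.997 in limma). Chip 1 alone gave -0.14 and chip 2 alone 0.14 (adjusted p = 0.853 for the interaction in limma). The signal of this probe before normalization was low, at 220 to 270 in EtOH mice and 238 to 325 in Control mice. How well the probe reads the Glul transcript was not tested.

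**Figure D2:**
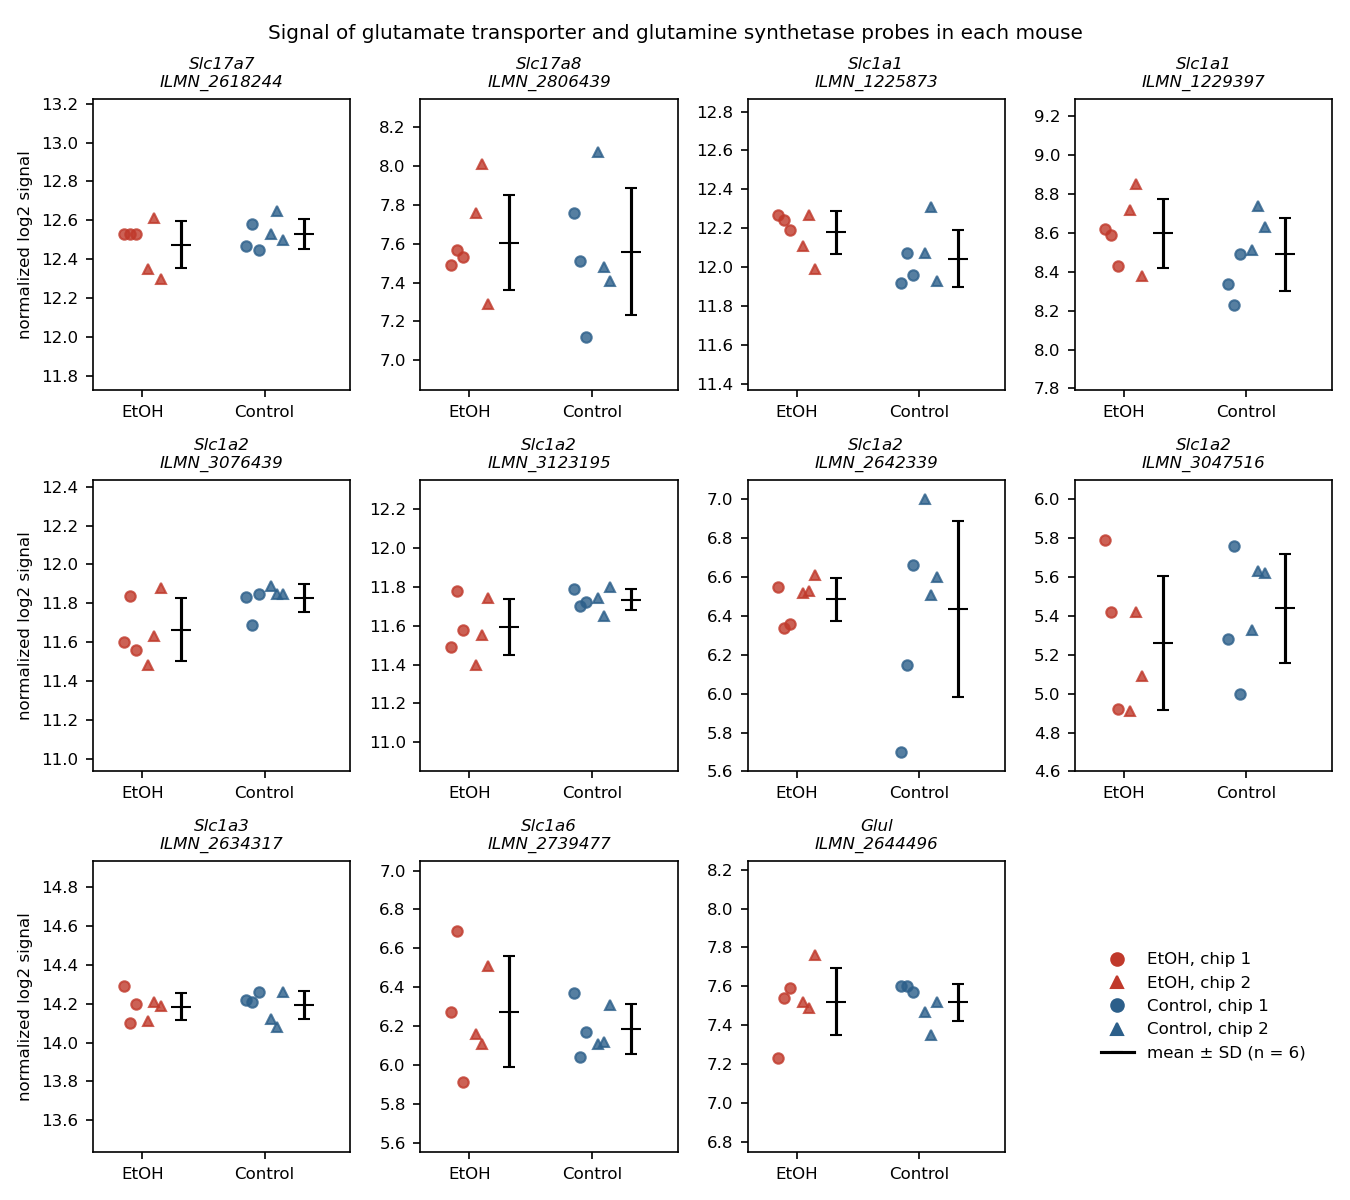
Normalized log2 signal (vertical axis, each panel spanning the same range of 1.5) of the 11 tested member probes in every mouse, EtOH left and Control right, circles for chip 1 and triangles for chip 2, with the mean ± SD of 6 mice beside the points. The groups overlap in every panel, and at the bright Slc1a2 probes 4 EtOH mice lie below every Control mouse.

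Whether the EtOH mice varied more among themselves was examined at each probe. The SD was larger in EtOH mice at 6 of 11 member probes, and at 47.9% of all probes. The ratio of the SDs (EtOH over Control) was 2.21 at ILMN_3076439 and 2.60 at ILMN_3123195 of Slc1a2, 2.21 for Slc1a6, 1.80 for Glul and 1.60 for Slc17a7. It was 0.242 at the dim Slc1a2 probe ILMN_2642339, where Control replicates 1 and 4 were the lowest and the highest of all mice. With median scaling the ratios were smaller at the bright Slc1a2 probes, 1.29 and 1.54 (exact permutation p = 0.617 and 0.416), 1.66 for Slc1a6, 1.25 for Slc17a7 and 0.43 at ILMN_2642339, and larger for Glul (2.47) and Slc1a3 (2.41, against 0.96 in the main scaling). The lowest two-sided exact permutation p for the spread among the members was 0.102, and all were 1 after adjustment over all probes. Over all probes, 0 passed the adjusted threshold and 911 (4.72%) had an unadjusted p under 0.05. The group difference did not depend on the chip past the threshold at any member probe, with unadjusted p-values of 0.117 to 0.938 for the interaction in limma, beside 6.27% of all probes under 0.05.

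Members that act in the same cell type, or in different ones, were then compared across mice. At the brightest probes of Slc17a7, Slc1a1, Slc1a2, Slc1a3 and Glul, the mean of each group was subtracted and all 10 pairs were correlated over the 12 mice. Slc17a7 and Slc1a1, both neuronal, had a Pearson r of 0.87 (permutation p = 0.00023, adjusted p = 0.0023 over 10 pairs) and a Spearman rho of 0.87 (permutation p = 0.00056, adjusted p = 0.0056). By group, r was 0.94 in EtOH mice and 0.93 in Control mice. By chip it was 0.90 for chip 1 and 0.88 for chip 2, and it was 0.86 without the 2 mice farthest from the median. Of 10834 genes, 8 (0.0738%), Slc1a1 among them, followed Slc17a7 at least as closely as Slc1a1 did, a count made after the values were seen. The GC box in their promoter windows, printed above, was not particular to the pair, since the windows of Glul, Slc1a3 and Slc1a6 held 1, 1 and 6 matches, and those of Slc1a2 and Slc17a8 held 0.

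The mean of the hippocampal excitatory neuron markers had an r of 0.64 with Slc17a7 (permutation p = 0.021, adjusted p = 0.105 over 15 relations, rho 0.60, permutation p = 0.0436) and of 0.56 with Slc1a1 (permutation p = 0.0638, adjusted p = 0.239, rho 0.56, permutation p = 0.0626). Without the 2 mice farthest from the median these were 0.36 and 0.36, so they rested in part on those mice. The number of probes detected on an array had an r of -0.16 with Slc17a7 and 0.04 with Slc1a1 (permutation p = 0.606 and 0.902, adjusted p = 0.878 and 0.983). The part of cell type content in the relation of Slc17a7 and Slc1a1 was not tested.

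Although Slc17a7 and Slc1a1 moved together within each group, their group differences over the 12 mice had opposite signs (-0.06 and 0.14). Neither had an unadjusted p under 0.05 in limma (0.468 and 0.128), and on chip 1 both were above 0 (0.03 and 0.25). The log2 signal of Slc1a1 minus that of Slc17a7 was then taken in each mouse. This comparison was chosen after the values were seen and made for all 10 pairs of these members. The difference between 2 probes has no meaning as a relative abundance, but its change between groups can be read. It was -0.26, -0.29, -0.35, -0.24, -0.34 and -0.31 in EtOH mice, against -0.55, -0.51, -0.49, -0.46, -0.35 and -0.57 in Control mice. Of the 6 EtOH mice 5 lay above every Control mouse, and EtOH replicate 3 lay just below Control replicate 5. The means were -0.30 ± 0.04 in EtOH mice and -0.49 ± 0.08 in Control mice (SD, n = 6 each), so the balance of Slc1a1 over Slc17a7 was higher by 0.19 on the log2 scale in EtOH mice. The two-sided exact permutation test gave p = 0.00433, and p = 0.0433 after adjustment over the 10 pairs. The difference was 0.21 on chip 1 and 0.17 on chip 2.

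As background, the log2 ratio to Slc17a7 had an exact permutation p as low as this for 119 (1.10%) of 10834 other genes. For the ratio to Slc1a1 the count was 74 (0.683%), and each count includes the other gene of the pair. An exact permutation p under 0.05 was found for 8.70% of the ratios to Slc17a7 and 9.41% of those to Slc1a1. As the comparison was chosen from these same values, its p-values are a description and not an independent test. With the dimmer Slc1a1 probe in place of the brighter one, the difference was 0.16 with a two-sided exact permutation p of 0.139. None of the other 9 pairs passed the threshold after adjustment. The next was Slc1a1 over Slc1a2, at 0.51 ± 0.22 in EtOH mice and 0.22 ± 0.16 in Control mice (SD, n = 6 each), a difference of 0.30 (two-sided exact permutation p = 0.0346, adjusted p = 0.173).

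**Figure D3:**
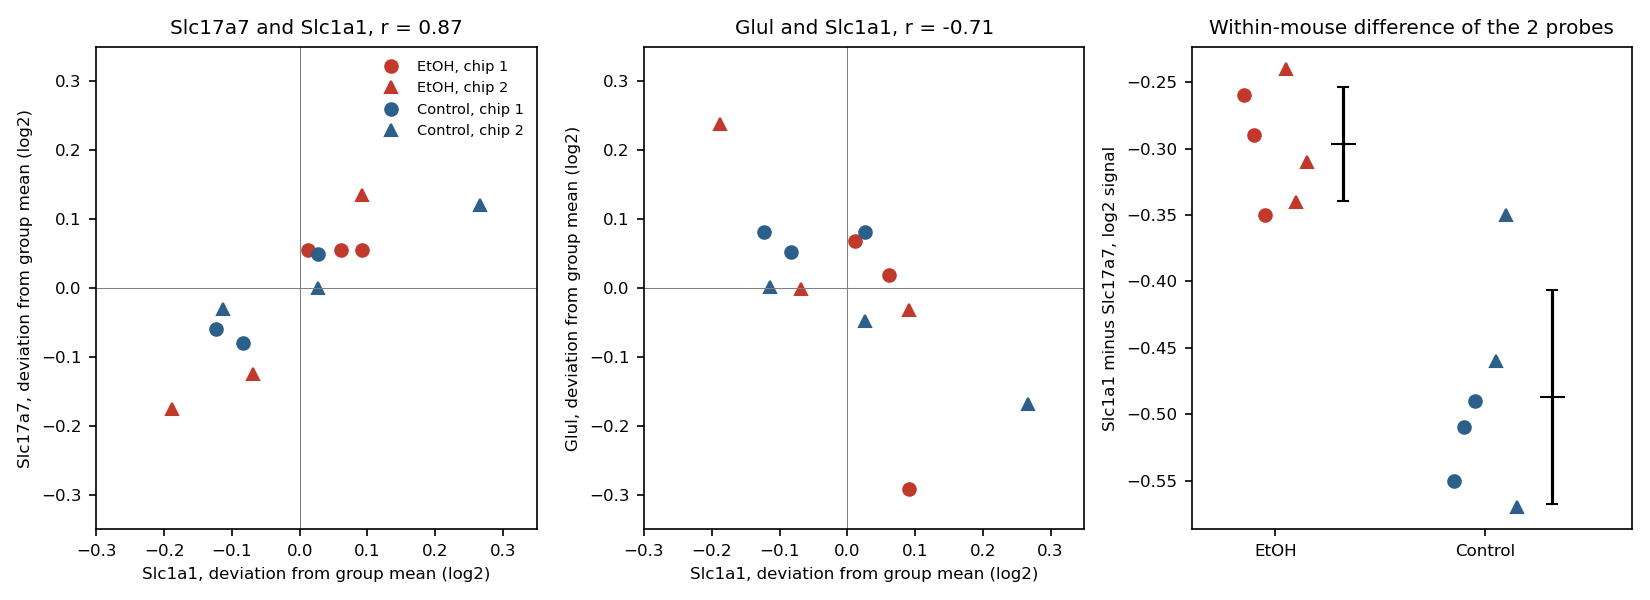
Left and middle, the deviation of each mouse from its group mean (log2) for Slc17a7 and for Glul against that for Slc1a1, with r of 0.87 and -0.71. Right, the log2 signal of Slc1a1 minus that of Slc17a7 in each mouse with mean ± SD of 6 mice, where 5 EtOH mice lie above every Control mouse.

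Glul ran against Slc1a1, with an r of -0.71 (permutation p = 0.012, adjusted p = 0.0599 over 10 pairs) and a rho of -0.67 (permutation p = 0.0207, adjusted p = 0.104), but this direction depended on the scaling. With each array scaled by its median in place of quantile normalization, r was 0.13. Under the main scaling, chip 1 alone gave -0.59 and chip 2 alone -0.85. The r was -0.73 without the 2 mice farthest from the median, and 112 (1.03%) of 10834 genes, Slc1a1 among them, ran against Glul as closely. Glul and Slc17a7 had an r of -0.58 (permutation p = 0.0489, adjusted p = 0.163, rho -0.46, permutation p = 0.131), which was 0.24 with median scaling. The other 7 pairs had r between -0.40 and 0.29, with adjusted permutation p-values of 0.505 to 0.950. Glul had an r of 0.67 with the mean of the astrocyte markers (permutation p = 0.0145, adjusted p = 0.105 over 15 relations, rho 0.59, permutation p = 0.047), and of 0.47 without the 2 mice farthest from the median. For Slc1a3 and that mean it was 0.30 (permutation p = 0.338, adjusted p = 0.845, rho 0.21).

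The genes whose pattern was most like each member were found by the Pearson r over the 12 arrays after the mean of each chip and group was removed, as a description with no test. For Slc17a7 these were Fam32a (0.97), Scamp5 (0.95) and Zmiz2 (0.94), and for Slc1a1 they were Ccny, Smarcad1 and Mau2 (0.92 each). For Slc1a2 they were Rpl39 (0.93), Sarnp (0.91) and Hivep1 (0.91), and for Slc1a3 they were Cd81 (0.96), Timm10 (0.96) and Lyz2 (0.95). For Glul they were Smox (0.97), Rad23b (0.96) and Tmco1 (0.92). For the dimmer members they were Il16, Pcf11 and Zfp526 (0.92 to 0.95, Slc17a8) and Myl1, Sbsn and Tjap1 (0.91 to 0.94, Slc1a6). These values are the highest among all genes tested, over 12 arrays.

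Of the other genes listed for the cycle, 25 had a probe used here and 22 were tested, at 36 probes. At the brightest probe of each gene, 12 were above 0 and 10 below (also with median scaling), with a median log2 fold change of 0.06 beside 0.01 over all genes tested. None of the 22 had an unadjusted p under 0.05 at that probe in limma, beside 6.5% of all 10835 genes, and 0 of the 36 probes passed the adjusted threshold. By function, the enzymes of glutamate synthesis and breakdown had 4 of 9 genes above 0, the other carriers of glutamate, aspartate and cystine 3 of 6, and the glutamine carriers 4 of 6. Of 3 modulators of the transporters, Arhgef11 alone was tested.

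Glud1, glutamate dehydrogenase, had log2 fold changes of -0.08, -0.14 and -0.03 at its 3 probes, with adjusted p-values of 0.836 to 0.971 in limma. Slc38a3, a transporter that releases glutamine from astrocytes, had means of 7.87 ± 0.22 in EtOH mice and 8.07 ± 0.26 in Control mice (SD, n = 6 each), a log2 fold change of -0.20 (95% interval -0.48 to 0.08, adjusted p = 0.784 in limma). Slc38a1, a glutamine importer of neurons, had -0.06 at its brightest probe (adjusted p = 0.929 in limma). Its 3 dim probes differed in sign, at -0.16, 0.14 and 0.20.

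A single probe of the 36 had an unadjusted p under 0.05, ILMN_2474684 of Slc25a12, the mitochondrial carrier of aspartate and glutamate known as aralar. It had means of 8.50 ± 0.14 in EtOH mice and 8.26 ± 0.15 in Control mice (SD, n = 6 each), a log2 fold change of 0.24 (SE 0.091, unadjusted p = 0.0192 and adjusted p = 0.720 in limma). The values were 0.33 on chip 1 and 0.15 on chip 2. The brighter probe of the gene, ILMN_2972855, had 0.11 (unadjusted p = 0.171 in limma).

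**Figure D4:**
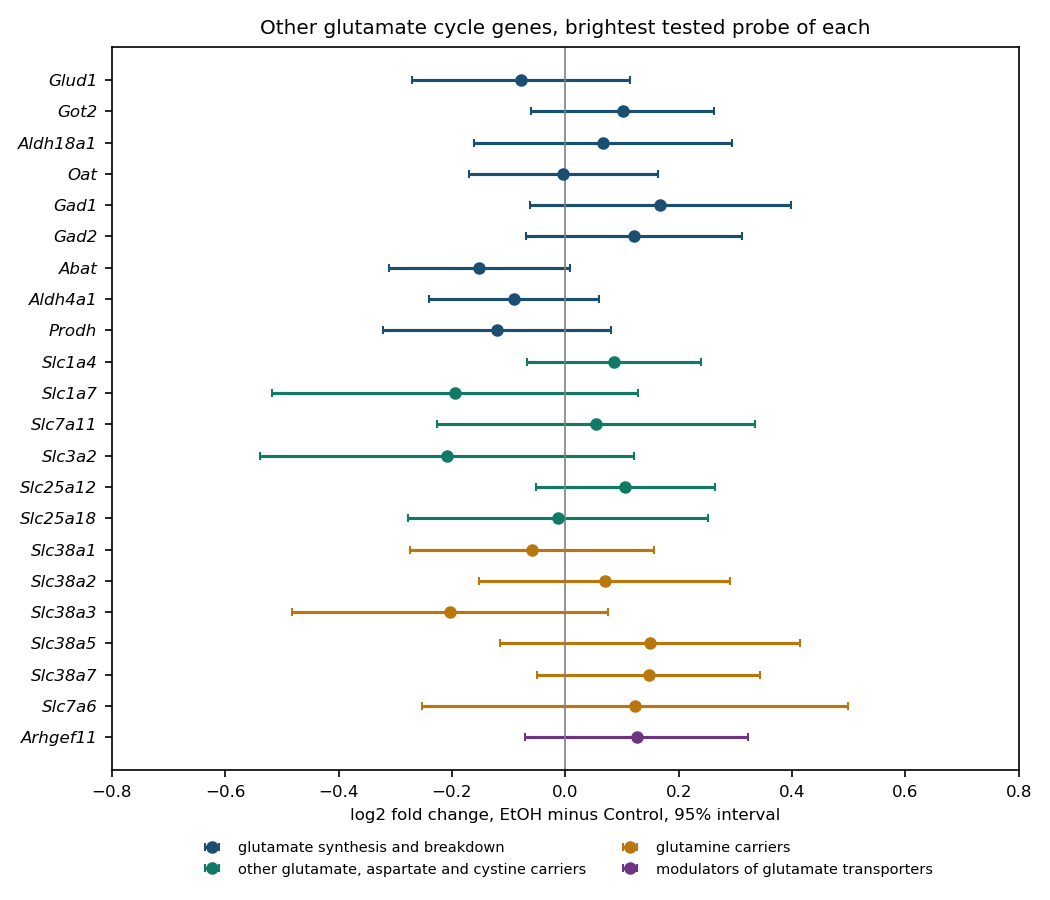
Log2 fold change (EtOH minus Control, horizontal axis) with its 95% interval over 12 mice for the 22 other glutamate cycle genes that were tested, at the brightest probe of each, coloured by list. All intervals cross 0, with 12 genes above 0 and 10 below.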

How the data were processed

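Hippocampal RNA was hybridised to 12 arrays, 1 per mouse, 6 EtOH and 6 Control, on 2 chips as inferred from numbers in the sample titles. The authors summarised the beads in GenomeStudio 1.9.0 (version from the submitters' processing notes). The deposited tables give the intensity of each probe before normalization with its detection p-value, also deposited, and the intensity after the authors' quantile normalization. The normalized table lay within 0.947% of a quantile normalization of the first table, with column medians of 107.4 to 107.6. No 2 arrays were duplicates, as 99.6% or more of probes differed between any pair. Precision is limited by the number of arrays.

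Signals were background corrected in limma 3.58.1 (R 4.3.3) by normexp with an offset of 16, quantile normalized on the linear scale and then transformed to log2. Symbols came from the platform annotation, checked by gene identifier (34807 found, 0 changed), and 34885 probes had 1 symbol, 18 several and 10378 none. Groups were compared with limma on group alone, with empirical Bayes, and Benjamini-Hochberg adjustment over the 19288 probes detected at p under 0.05 on at least 6 arrays. Single values were tested by exact permutation over all 924 assignments (smallest p 0.00216), and correlations with 100000 permutations. The procedure was tested on simulated data. Promoters came from RefSeq (GRCm38.p6). All 7 symbols were matched.

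The members and lists were chosen with earlier results of these data known. Named were all members, cycle genes past an unadjusted p of 0.05 in limma, Glud1, Slc38a1 and Slc38a3, and the 3 genes most like each member. Some items the rule names are not reported here. Alternatives covered background correction, normalization, filter, chip, replicate block, moderation and leaving out each mouse. Gfap, Aldoc, Gja1, Sox9, Atp1b2 and Arhgef11 are named outside that rule, after their values were seen. Markers of interneurons (7 of 8 tested, median log2 fold change 0.07), choroid plexus (3 of 8, -1.12, with groups that overlapped in summed signal) and thalamus or habenula (4 of 7, 0.05) were also summarised.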

Additional observations from a re-analysis of the deposited data

Results flagged for a closer look

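Each of 26 sets of 6 mice, the groups at all 13 member probes, was examined for a mouse far from the others, which chance flags in about 5% of groups. A single set stood out, the Control mice at the Slc1a2 probe ILMN_3076439, where Control replicate 2 had a log2 signal of 11.69, the next mouse 11.83 and the highest 11.89. The gap was 0.67 of the group's range. Without this mouse the log2 fold change (EtOH minus Control) of that probe was -0.19 and its unadjusted p in limma 0.0434, while the adjusted p was 0.771.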

How the results depend on the processing

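Of the probes with an unadjusted p under 0.05 in limma, 18.8% had a higher signal in EtOH mice with median scaling, against 52.2% in the main fit. The median log2 fold change of all probes was -0.04 with median scaling. The count of higher probes (648 in the main fit) was 147 with median scaling, 1300 with no filter on dim probes, 428 on chip 2 alone and 536 to 848 with 1 mouse left out, and that of lower probes (594) was 1177 with no filter and 519 to 789 with 1 mouse left out. Probes past 1.5-fold and an unadjusted p of 0.05 (25) numbered 5 with no background correction and in the authors' table, 12 with an offset of 50 or detection on all 12 arrays, 336 on chip 1, 41 on chip 2 and 15 to 55 with 1 mouse left out. No probe passed the adjusted threshold under any alternative.

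Member probes with an unadjusted p under 0.05 (0) numbered 1 with no background correction, in the authors' table, on chip 1 and on chip 2, 2 without empirical Bayes and 0 to 2 with 1 mouse left out. The count was 2 without EtOH replicate 2 or 6 and 1 without Control replicate 2 or 5. The 1 member probe was ILMN_3076439 with no background correction and in the authors' table, ILMN_1225873 on chip 1 and ILMN_3047516 on chip 2. At that p, 675 of all 19288 probes were higher and 679 lower with no background correction, and likewise in the authors' table. These counts were 805 and 850 on chip 1, 428 and 489 on chip 2, and 730 and 603 without empirical Bayes. The log2 fold change changed sign for Slc17a7 on chip 1 (0.03), Slc17a8 with median scaling (-0.02), ILMN_2642339 with median scaling (-0.01) and on chip 2 (-0.15), ILMN_3047516 on chip 1 (0.03), Slc1a3 on chip 2 (0.02), and Glul with median scaling (-0.07) and on chip 1 (-0.14). With 1 mouse left out it ran from -0.04 to 0.15 for Slc17a8, -0.10 to 0.16 for ILMN_2642339, -0.03 to 0.01 for Slc1a3, 0.00 to 0.16 for Slc1a6 and -0.05 to 0.06 for Glul. The bright Slc1a2 probes and both Slc1a1 probes kept their sign throughout. The ratio of SDs turned to 1.17 for ILMN_1229397 and 2.41 for Slc1a3 with median scaling, where that of Glul was 2.47 (exact permutation p = 0.026 for its spread), and fell to 1.29 and 1.54 at the bright Slc1a2 probes.

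Among the correlations, median scaling turned Slc1a2 with Slc1a3 (0.43), Slc17a7 (0.44) and Slc1a1 (0.45), Slc1a3 with Glul (0.55), Slc17a7 (0.37) and Slc1a1 (0.30), and Glul with Slc17a7 (0.24) and Slc1a1 (0.13). Chip 2 turned Slc1a2 with Slc1a3 (0.24) and Slc1a3 with Glul (0.48). That of Slc17a7 and Slc1a1 was 0.94 with median scaling. The difference in the Slc1a1 to Slc17a7 log2 ratio was 0.17 to 0.22 over its alternatives, all added after the data were seen. The causes were not tested.

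Whether replicate numbers pair the mice is not stated. Same-numbered mice had correlations of -0.02 to 0.21, and for EtOH replicates 4 and 6 the closest Control mouse had the same number. These values cannot decide whether the mice were paired. With the replicate block 0 member probes had an unadjusted p under 0.05, the lowest being 0.107, and no probe passed the adjusted threshold. Signal over background limits Slc1a6, Slc17a8, Glul and the dim Slc1a2 probes.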
